A study of Mus musculus with 92 samples.

Results

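The first flox/flox organoid set of this study consists of 6 of its 92 RNA-seq samples. They were chosen as the libraries of 3 mouse small intestinal organoid lines, named S6070, S6072 and S2080 in the library names and called lines 1, 2 and 3 here after their replicate numbers. Each line gave 1 library with 4-hydroxytamoxifen (4-OHT) and 1 with the solvent DMSO, so 3 libraries were compared with 3, paired by line. All 6 carried the genotype Eif4g2(flox/flox), Rosa26(CreER): both Eif4g2 copies are flanked by recombination sites, and a Cre recombinase that tamoxifen compounds activate is made from the Rosa26 locus, which is active in nearly all cell types and not only in stem cells. The 4-OHT arm received 0.5 µM for 24 h and the other arm DMSO, both in ENR medium (EGF, Noggin and R-spondin), and organoids were collected on day 6. Within this set 4-OHT went only to the organoids that lose Eif4g2, so exposure to 4-OHT and loss of the gene cannot be told apart. The labels do not say whether the 3 lines came from separate mice. The p-values set the change within lines against the spread of that change over these 3 lines.

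Poly(A) RNA was sequenced and counted per gene. Levels are given as CPM (read counts scaled to a common library total) after scaling by edgeR's trimmed mean of M-values (TMM), and differences as log2 fold changes of 4-OHT over DMSO with ± the standard error (SE) from the fit with line as a block. A gene was called when its Benjamini-Hochberg adjusted p from edgeR's quasi-likelihood test was under 0.05. Each of the 6 libraries held between 23294520 and 32352542 counts, and between 2.991% and 3.72% of them came from the mitochondrial genome. A panel of 8 pan-epithelial genes, among them Epcam and Krt8, summed to 9920 to 10600 CPM with DMSO and to 11600 to 13700 CPM with 4-OHT. The 10 lymphocyte markers summed to at most 1.69 CPM and the 10 fibroblast and smooth muscle markers to at most 1.21 CPM in any library, with Cd3d, Cd4, Gzma, Col3a1, Dcn and Lum at 0 reads in all 6. The myeloid markers summed to between 4.43 and 5.91 CPM with DMSO and between 4.81 and 12.8 CPM with 4-OHT, with Adgre1, Itgax and Cpa3 at 0. The 6 endothelial markers summed to 12.6 to 15.4 CPM with DMSO and 2.64 to 5.56 CPM with 4-OHT. Of these Lyve1 stood at 12.1, 12.6 and 11.4 CPM with DMSO and 2.76, 4.41 and 2.11 CPM with 4-OHT, and 4 of the 6 were under 1 CPM in every library. The 6 markers of glia and neurons summed to 4.84 to 5.76 CPM with DMSO and 2.82 to 3.84 CPM with 4-OHT, with Sox10 at 0. The part of such cells in the results was not tested.

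eIF4G2, also called DAP5 or p97, is a relative of the translation initiation scaffold eIF4G1. It binds eIF4A and eIF3 but lacks the region that holds the cap-binding protein eIF4E, and it is known for starting translation on selected mRNAs. Intestinal organoids grow crypt-like buds in which Lgr5-positive stem cells, kept by Wnt and Notch signals, sit beside Paneth cells and give rise to enterocytes and to goblet, enteroendocrine and tuft cells. The title of the study names the translation of histone modifiers as the process under study, and RNA levels do not measure translation.

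Eif4g2 itself, at chr7:111067750-111083030 on the minus strand (GRCm38) by the deposited table, stood at 755, 705 and 794 CPM with DMSO and 144, 148 and 144 CPM with 4-OHT. The 4-OHT libraries lay close together and far below the DMSO libraries in all 3 lines (edgeR adjusted p = 0.00011 for a log2 fold change of -2.37 ± 0.09). The level that remained was alike in the 3 lines. The CreER-only comparison of a second organoid set, described further on, gave -2.42 for the same gene.

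Of the 15297 genes tested, 6622 (43.3%) were called, 3398 (22.2%) higher and 3224 (21.1%) lower with 4-OHT. Counts of called list members below are to be read beside these shares, direction by direction. A called share given below joins rises and falls. Among called genes the median size of the log2 fold change was 0.72. Of them 6617 moved the same way in all 3 lines, which the call itself favours, since line was a block. The groups did not overlap for 5990 of the called genes and for 7742 of all 15297 tested genes. The number of called genes was 3956 without line 1, 4401 without line 2 and 7625 without line 3. Another fit also held, as groups of their own, the 16 organoid libraries of an experiment with A-485, an inhibitor of the acetyltransferases p300 and CBP. It called 2907 genes and is named below as the fit with the A-485 libraries. Those libraries were collected on another day, and the name of line 1 occurs among them too. Their line names were not entered as a block, so this fit is not a like-for-like check. Large falls outnumbered large rises: 318 called genes were more than 8-fold lower and 42 more than 8-fold higher. The 12 largest rises among genes of at least moderate level (mean log2 CPM of 3 or more, no predicted genes) were Cav1, Slc4a11, Ehd2, Cavin1, Ggta1, Vstm2l, Cav2, Wnt7b, Cwh43, Anxa8, Clca4a and Npnt, with log2 fold changes from 2.56 to 5.72. The 12 largest falls, from -4.65 to -3.85, were Prlr, Defa17, AY761184, Hsd17b13, Olfm4, Ces1d, C4bp, Slco2b1, Defa20, Reg1, Acot1 and Tgm2. The rises hold 4 genes of the caveolar coat and its membrane partners, and the falls hold Paneth cell defensins (Defa17, Defa20, AY761184), a stem cell marker (Olfm4) and enzymes and transporters of the absorptive epithelium (Hsd17b13, Ces1d, Slco2b1, Acot1). Reads of near-identical defensin copies may have been split between genes, so values of single defensins are uncertain.

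**Figure D1:**
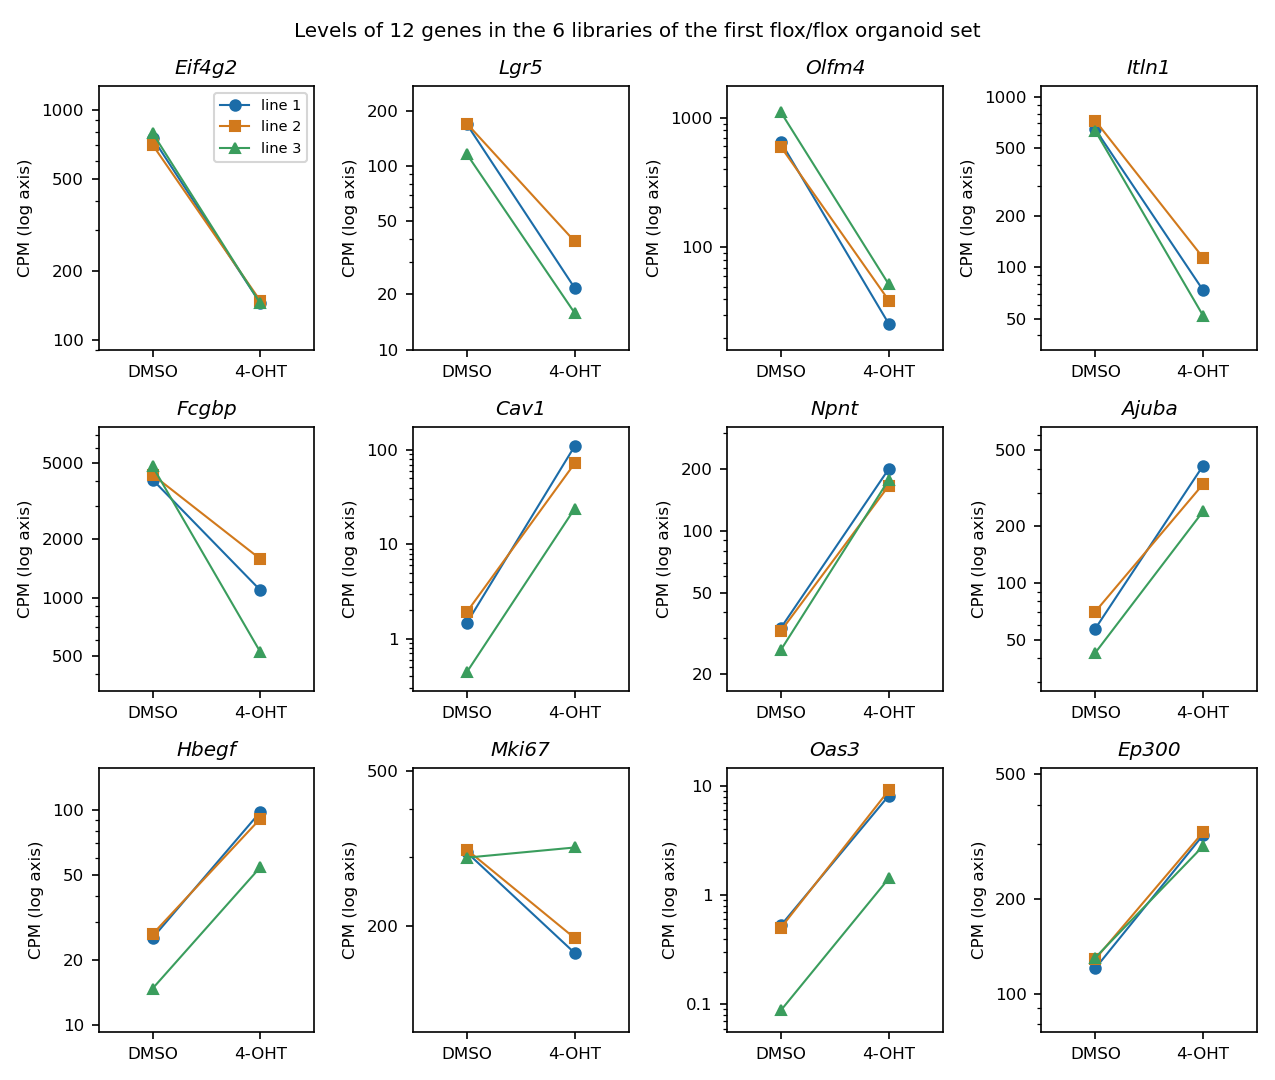
Levels (CPM, log axes that differ between panels) of 12 genes in the 6 libraries, with lines joining the DMSO and 4-OHT library of each organoid line. Eif4g2 fell alike in lines 1, 2 and 3, whereas Mki67 went down in lines 1 and 2 and stayed level in line 3.

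Most genes that mark Wnt-dependent stem cells were lower. Of 27 tested members, 18 fell and 3 rose, with a median of -0.91 against 0.02 over all tested genes. Lgr5, the R-spondin receptor that marks crypt base stem cells, stood at 169, 170.4 and 116 CPM with DMSO and 21.7, 39 and 15.9 CPM with 4-OHT. Every 4-OHT library was below every DMSO library, and line 2 kept the most (edgeR adjusted p = 0.000313 for a log2 fold change of -2.65 ± 0.18). Olfm4, a secreted stem cell marker that Notch induces, stood at 645, 594 and 1096 CPM with DMSO and 25.7, 39 and 51.8 CPM with 4-OHT (edgeR adjusted p = 0.000144 for a log2 fold change of -4.33 ± 0.16). Line 3 had the highest Olfm4 in both arms, and the groups were far apart. Ascl2, the transcription factor that specifies these cells, stood at 20.8, 20.1 and 20.8 CPM with DMSO and 5.07, 3.54 and 5.65 CPM with 4-OHT (edgeR adjusted p = 0.00034 for a log2 fold change of -2.13 ± 0.16). Aqp4 (-3.23), the Wnt target Sp5 (-1.97), Smoc2 (-1.57), Axin2 (-0.92) and Slc12a2 (-0.91) also fell, while Tcf7, a Wnt-responsive transcription factor gene, rose (0.93). Sox9, which marks progenitors and Paneth cells, and Rnf43, a Wnt feedback ligase, were not called, at 0.03 and -0.20. The list had 1 rise and 16 falls without line 1 and 1 and 17 without the line block, and in the fit with the A-485 libraries the calls on Axin2 and Tcf7 were lost (edgeR adjusted p = 0.123 and 0.164). In RNA from whole organoids, fewer cells of a type and less RNA per cell cannot be told apart.

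Genes of the Notch pathway went both ways, ligands and receptors alike. Of 30 tested members 12 rose and 10 fell, and the median was 0.06. Among ligands that secretory cells present, Dll4 stood at 11.6, 10.9 and 15.2 CPM with DMSO and 1.61, 2.66 and 1.43 CPM with 4-OHT (edgeR adjusted p = 0.00079 for a log2 fold change of -2.74 ± 0.27), and Dll1 fell too (-1.10). Lfng, a glycosyltransferase that modifies Notch receptors, stood at 16.1, 15.4 and 18.7 CPM with DMSO and 0.85, 1.11 and 1.58 CPM with 4-OHT (edgeR adjusted p = 0.000174 for a log2 fold change of -3.84 ± 0.18). The groups did not overlap for any of these, as was so for 7742 of all 15297 tested genes. Atoh1, the transcription factor of the secretory lineages, fell (-1.77), as did the receptor Notch1 (-1.24). The ligands Jag1 (0.94) and Jag2 (1.53) and the receptor Notch2 (0.61) rose. Hes1, the main Notch target gene, was not called (-0.38, edgeR adjusted p = 0.0695). The list had 7 rises and 9 falls without line 1, and 7 and 11 without line 2.

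In each of the 4 lists of secretory cell genes most members fell. Among Paneth cell genes 29 of 32 tested members fell and 1 rose, with a median of -2.64. Itln1, an intestinal lectin, stood at 647, 727 and 633 CPM with DMSO and 73.3, 114 and 52 CPM with 4-OHT (edgeR adjusted p = 0.000253 for a log2 fold change of -3.14 ± 0.19). The lysozyme gene Lyz1 gave -2.33 and Wnt3, the Wnt ligand made by Paneth cells, gave -3.03. Summed over the 33 listed genes, Paneth transcripts took 3280, 3590 and 3260 CPM with DMSO and 859, 1090 and 610 CPM with 4-OHT, so line 3 kept the least.

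Among goblet cell genes 22 of 29 fell and 3 rose, with a median of -1.14. Fcgbp, a mucus protein and the most abundant of them, stood at 4088, 4335 and 4791 CPM with DMSO and 1091, 1584 and 521 CPM with 4-OHT (edgeR adjusted p = 0.00357 for a log2 fold change of -2.18 ± 0.33). Line 3 went down furthest and line 2 least. The mucin gene Muc2 (-1.66), Tff3 (-1.75) and the lineage factors Spdef (-1.08) and Foxa3 (-2.37) fell, while Clca1, a secreted goblet cell protein, did not move one way: it stood at 263, 234 and 206 CPM with DMSO and 328, 346 and 100.2 CPM with 4-OHT, above DMSO in lines 1 and 2 and below it in line 3 (edgeR adjusted p = 0.929 for a log2 fold change of -0.04 ± 0.30). Without line 1 the goblet list had 14 falls and 2 rises, and the call on Spdef was lost (edgeR adjusted p = 0.0554). With no filter on low counts the list had 3 rises and 10 falls, and the calls on Fcgbp, Muc2 and Tff3 were lost (edgeR adjusted p = 0.124, 0.199 and 0.17) at log2 fold changes of -2.17, -1.65 and -1.74.

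Enteroendocrine genes gave 33 falls and no rise among 35 tested, with a median of -2.18. Chga, a granule protein of hormone cells, stood at 54.5, 56.9 and 50.8 CPM with DMSO and 12.2, 11.7 and 4.5 CPM with 4-OHT (edgeR adjusted p = 0.000887 for a log2 fold change of -2.60 ± 0.26). The lineage factor Neurog3 (-2.84), the proglucagon gene Gcg (-2.997) and the tachykinin gene Tac1 (-2.46) fell. Nts, the neurotensin gene, was low in every library and was not called (0.35). Tuft cell genes gave 18 falls and no rise among the 23 of 32 that passed the filter on low counts, with a median of -2.76. Dclk1 stood at 5.72, 6.77 and 5.27 CPM with DMSO and 0.334, 1.04 and 0.031 CPM with 4-OHT (edgeR adjusted p = 0.00299 for a log2 fold change of -3.83 ± 0.56), and Pou2f3, the factor that specifies tuft cells, gave -3.24. In line 3, Dclk1 was at the limit of detection with 4-OHT. In the fit with the A-485 libraries the enteroendocrine list had 17 falls and the tuft list 10.

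**Figure D2:**
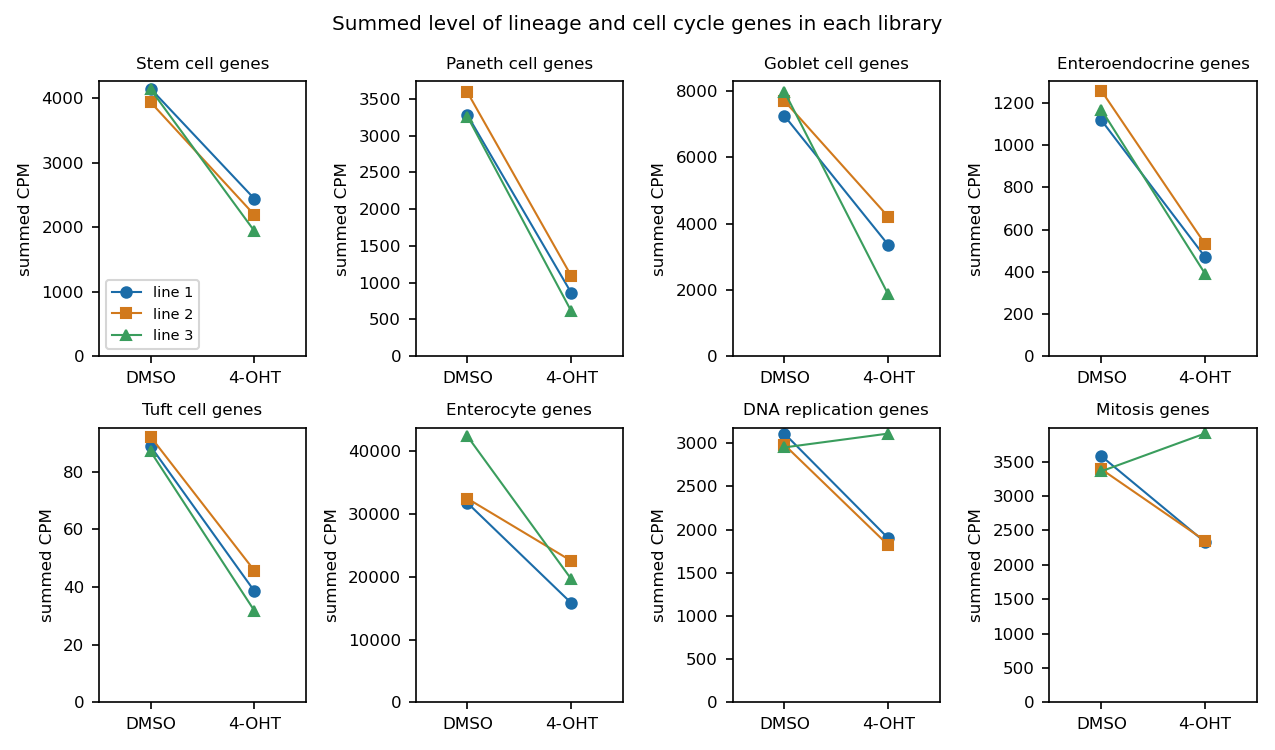
Summed level (CPM, axes from 0) of the genes of each lineage and cell cycle list in the 6 libraries, with lines joining the DMSO and 4-OHT library of each organoid line. Paneth, goblet, enteroendocrine and tuft sums were lower with 4-OHT in all 3 lines, and the DNA replication and mitosis sums in lines 1 and 2 only.

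Most absorptive genes fell, with exceptions. Of 49 tested enterocyte genes 38 fell and 5 rose, with a median of -1.0. Cps1, the urea cycle enzyme of crypt and enterocyte mitochondria, stood at 1632, 1495 and 1703 CPM with DMSO and 109, 192 and 138 CPM with 4-OHT (edgeR adjusted p = 0.000239 for a log2 fold change of -3.50 ± 0.20). Fabp1, a fatty acid carrier, gave -2.34, Apoa4 gave -1.82, Alpi, the brush border phosphatase, gave -1.32 and sucrase-isomaltase, Sis, gave -1.13. Other products of the same cells went the other way or did not pass the test. Mgam, a brush border disaccharidase, stood at 1167, 1371 and 1354 CPM with DMSO and 1503, 2232 and 1712 CPM with 4-OHT (edgeR adjusted p = 0.0125 for a log2 fold change of 0.47 ± 0.10), and Mep1b, a brush border protease, rose as well (0.70). Without line 2 the list had 1 rise and 39 falls, and the call on Mgam was lost (edgeR adjusted p = 0.0595). In the fit with the A-485 libraries it had 2 rises and 17 falls, without Fabp1 and Sis (edgeR adjusted p = 0.0956 and 0.127), and with no filter the call on Apoa4 was lost (edgeR adjusted p = 0.0595). Apob and Apoa1, the apolipoproteins of chylomicrons, were not called (-0.06 and -0.17). Cytochrome P450 genes of families 1 to 4 had 21 falls and 1 rise among 27 tested, with a median of -1.51. Cyp3a11, a drug-metabolising enzyme, stood at 129, 110.0 and 397 CPM with DMSO and 28.7, 23.2 and 43.4 CPM with 4-OHT (edgeR adjusted p = 0.000538 for a log2 fold change of -2.54 ± 0.21). Line 3 had the highest Cyp3a11 in both arms.

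The intestinal transcription factors were divided, with 6 rises and 12 falls among 30 tested and a median of -0.06. Hnf4a, the main factor of the mature epithelium, stood at 1053, 961 and 1027 CPM with DMSO and 1016, 1216 and 1169 CPM with 4-OHT and was not called (0.16, edgeR adjusted p = 0.249). The groups overlapped. Gata4 was not called either (0.01). Cdx1 (-0.80), Hnf4g (-0.68) and Nr5a2 (-1.34) fell, Cdx2 fell by a small amount (-0.34), and Foxa1 rose (0.77). Leaving out line 1 gave 3 rises and 11 falls, and the call on Cdx2 was lost (edgeR adjusted p = 0.0735). In the fit with the A-485 libraries it had 3 rises and 6 falls, and Cdx1, Cdx2 and Hnf4g were not called (edgeR adjusted p = 0.0563, 0.248 and 0.061).

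The gene that rose most among those of at least moderate level, Cav1, belongs to caveolae, the flask-shaped pits of the plasma membrane built by caveolins and cavins. Of 11 tested caveolin, cavin and EHD genes 8 rose and 1 fell, with a median of 1.76. Cav1, the caveolin that forms the coat, stood at 1.47, 1.92 and 0.443 CPM with DMSO and 109.7, 72.1 and 23.9 CPM with 4-OHT (edgeR adjusted p = 0.000144 for a log2 fold change of 5.72 ± 0.21). Line 3 was lowest in both arms, and its 4-OHT library still lay above all DMSO libraries. Cavin1, which stabilises the coat, stood at 26.8, 27.7 and 11.4 CPM with DMSO and 225, 149 and 134 CPM with 4-OHT (edgeR adjusted p = 0.000359 for a log2 fold change of 2.999 ± 0.21). Ehd2, an ATPase at the neck of caveolae, stood at 6, 7.11 and 2.83 CPM with DMSO and 86.4, 55.2 and 30 CPM with 4-OHT (edgeR adjusted p = 0.000216 for a log2 fold change of 3.40 ± 0.18), and Cav2 gave 2.77.

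Genes of fetal and regenerative epithelium, which are raised in the fetal gut and after injury, gave 28 rises and 1 fall among 38 tested, with a median of 1.32. S100a6, a calcium-binding protein, stood at 212, 231 and 164 CPM with DMSO and 1308, 1075 and 980.0 CPM with 4-OHT (edgeR adjusted p = 0.000161 for a log2 fold change of 2.48 ± 0.11). The urokinase receptor gene Plaur gave 2.24, its ligand Plau 3.07, mesothelin, Msln, 2.11, Krt7 1.52, Anxa1 1.49 and the alarmin Il33 1.93. The groups did not overlap for any of these genes, as was so for 7742 of all 15297 tested genes. Members often used as the leading markers of this state did not share the rise. Ly6a, which encodes Sca-1, stood at 83.8, 66.4 and 31.5 CPM with DMSO and 95.3, 55.4 and 20.7 CPM with 4-OHT (edgeR adjusted p = 0.288 for a log2 fold change of -0.22 ± 0.15). Its level differed more between lines than between treatments, being highest in line 1 and lowest in line 3 in both arms. Clu, which marks revival stem cells, stood at 485.3, 468 and 355 CPM with DMSO and 800.4, 415 and 396 CPM with 4-OHT and was higher with 4-OHT in lines 1 and 3 but not in line 2 (edgeR adjusted p = 0.306 for a log2 fold change of 0.23 ± 0.17).

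YAP and TAZ are co-activators that bind TEAD factors and are held back by the Hippo kinases; in the gut they are known for their part in regeneration. Of 32 tested Hippo pathway genes and YAP targets 23 rose and 4 fell, with a median of 0.60. Among the factors themselves, Yap1 gave 0.63, Wwtr1, which encodes TAZ, 1.75, Tead1 1.44 and Tead4 2.33, while Tead2 fell (-2.23), as did the upstream regulator Nf2 (-0.72). Among targets, Ajuba, a LIM protein that binds the Hippo kinase LATS, stood at 57.3, 70.5 and 42.7 CPM with DMSO and 416, 332 and 239 CPM with 4-OHT (edgeR adjusted p = 0.000194 for a log2 fold change of 2.52 ± 0.13). Ptpn14, a phosphatase that holds YAP in the cytoplasm, stood at 30.3, 33.1 and 14.6 CPM with DMSO and 131, 96.5 and 98.7 CPM with 4-OHT (edgeR adjusted p = 0.000967 for a log2 fold change of 2.12 ± 0.22), and Amotl2, an angiomotin that also restrains YAP, gave 1.62. The secreted target Ctgf stood at 35.3, 31.9 and 17.4 CPM with DMSO and 128, 94.7 and 42.4 CPM with 4-OHT (edgeR adjusted p = 0.000367 for a log2 fold change of 1.58 ± 0.12). Line 3 was lowest for Ctgf in both arms. Cyr61 gave 0.76, with overlapping groups and a call that was lost without line 1 or line 2 (edgeR adjusted p = 0.0705 and 0.102). Without either line the list had 2 falls, beside 18 or 16 rises.

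The promoters of 3 of these genes are shown, chosen among those with a match to GGAATG, the letters that TEAD factors bind. Each is the 250 bases before the start site in RefSeq's table for GRCm38.p6, written 5′ to 3′ on the gene's strand, with GGAATG or its reverse complement CATTCC in capitals. The windows are chr14:54577662-54577911 on the minus strand for Ajuba, chr1:189728018-189728267 on the plus strand for Ptpn14 and chr9:102717554-102717803 on the plus strand for Amotl2. They hold 2, 1 and 1 matches, all as CATTCC.
Ajuba promoter: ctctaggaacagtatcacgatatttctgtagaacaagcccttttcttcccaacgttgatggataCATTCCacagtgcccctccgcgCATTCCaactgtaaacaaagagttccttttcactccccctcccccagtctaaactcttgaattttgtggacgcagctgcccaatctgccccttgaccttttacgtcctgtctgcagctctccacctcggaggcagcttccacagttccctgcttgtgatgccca
Ptpn14 promoter: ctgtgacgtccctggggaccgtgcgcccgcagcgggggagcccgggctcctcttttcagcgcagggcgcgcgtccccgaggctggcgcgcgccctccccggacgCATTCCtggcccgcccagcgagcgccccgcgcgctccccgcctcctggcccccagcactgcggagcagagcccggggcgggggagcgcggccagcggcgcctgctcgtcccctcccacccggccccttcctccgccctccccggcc
Amotl2 promoter: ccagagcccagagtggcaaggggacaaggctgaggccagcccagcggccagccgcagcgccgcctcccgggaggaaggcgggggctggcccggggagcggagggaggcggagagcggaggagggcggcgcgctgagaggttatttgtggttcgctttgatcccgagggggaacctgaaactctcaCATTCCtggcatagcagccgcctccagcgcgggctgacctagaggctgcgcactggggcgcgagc
A match on either strand was present for 12 of the 25 tested Hippo and YAP list members that had a window in the table (48.0%) and for 1399 of all 10663 tested genes with one (13.1%). These 12 include Yap1, Wwtr1 and Tead3 but not Ctgf or Cyr61, and the list was put together partly from known TEAD targets. A match describes these letters and is not a measured binding site.

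Laminins, integrins and Cd44, the epithelial side of the basement membrane, had 15 rises and 4 falls among 24 tested, with a median of 0.47. Lama5, a laminin alpha chain, stood at 228, 254 and 135 CPM with DMSO and 657, 543 and 369.5 CPM with 4-OHT (edgeR adjusted p = 0.000385 for a log2 fold change of 1.36 ± 0.11), and the integrin subunit Itgb6 gave 1.05. Lamb3, a laminin beta chain, was not called (-0.18): it stood at 141, 146 and 125 CPM with DMSO and 165, 154 and 69.2 CPM with 4-OHT, slightly up in lines 1 and 2 and down in line 3. Without line 1, 12 members of the list were called higher and none lower. Npnt, a basement membrane ligand of integrins, stood at 33.7, 32.5 and 26.3 CPM with DMSO and 201, 167 and 178 CPM with 4-OHT (edgeR adjusted p = 0.000144 for a log2 fold change of 2.56 ± 0.10).

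Several but not all listed ligands of the EGF receptor rose, and the medium of both arms held added EGF. The EGF family list had 15 rises and 3 falls among 22 tested, with a median of 0.58. Hbegf stood at 25.4, 26.4 and 14.8 CPM with DMSO and 98.1, 91.2 and 54.2 CPM with 4-OHT (edgeR adjusted p = 0.000161 for a log2 fold change of 1.87 ± 0.08). Epiregulin, Ereg, gave 2.57, amphiregulin, Areg, 1.55 and betacellulin, Btc, 1.45. Areg stood at 71.2, 67.4 and 34 CPM with DMSO and 154, 182 and 149.9 CPM with 4-OHT, so line 3, the lowest with DMSO, reached the level of the others. The receptor Egfr rose by less (0.64), Erbb2 was not called (0.15), and Dusp6, a phosphatase that MAP kinase signalling induces, gave 1.53. Leaving out line 1 gave 12 rises and 1 fall.

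**Figure D3:**
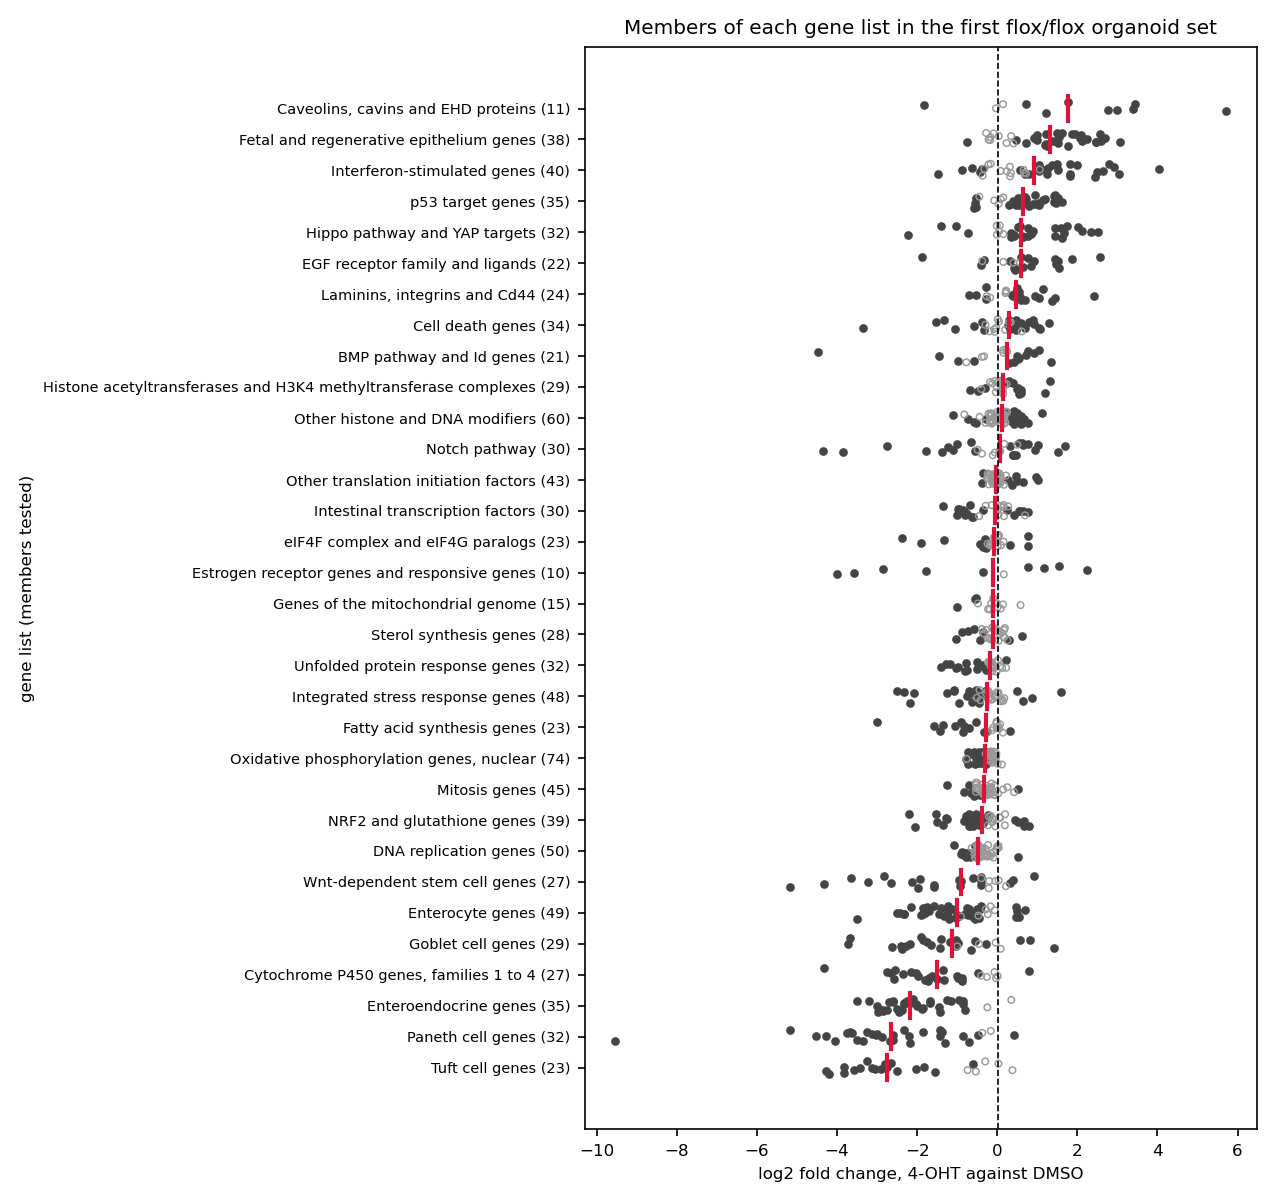
Log2 fold change of every tested member of 32 gene lists, ordered by median. Filled points were called, open points were not, red bars are list medians and the dashed line is the median of all tested genes (0.02). Caveolin genes lie furthest to the right and tuft and Paneth cell genes furthest to the left.

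Cell cycle genes separated the lines. Of 50 DNA replication genes 15 fell and 1 rose, with a median of -0.47, and of 45 mitosis genes 8 fell and 1 rose, with a median of -0.32. The share of called genes was 32.0% and 20.0%, both under the 43.3% of all tested genes. These counts joined lines that went different ways. The median log2 ratio within each line over the replication genes was -0.69, -0.71 and 0.08 in lines 1, 2 and 3, and over the mitosis genes -0.64, -0.54 and 0.24. In line 3, 33 of the 50 replication genes and 37 of the 45 mitosis genes were higher with 4-OHT, against 1 and 3 in line 1 and 1 and 3 in line 2. Mki67, the proliferation antigen, stood at 309, 314 and 299.5 CPM with DMSO and 170.5, 186 and 318 CPM with 4-OHT. The 3 DMSO libraries lay together, and line 3 with 4-OHT lay just above them (edgeR adjusted p = 0.0735 for a log2 fold change of -0.51 ± 0.19). Top2a, a topoisomerase of dividing cells, stood at 356, 325 and 320.2 CPM with DMSO and 199, 199.6 and 332 CPM with 4-OHT (edgeR adjusted p = 0.0656 for a log2 fold change of -0.50 ± 0.18). Without line 3, 45 replication genes and 41 mitosis genes were called lower, without line 1 or line 2 it was 4 and 1, and without the line block 6 and 3. Some members fell in all 3 lines: Tk1, thymidine kinase, stood at 65.5, 61.5 and 63.6 CPM with DMSO and 23.7, 26.1 and 44.2 CPM with 4-OHT (edgeR adjusted p = 0.00519 for a log2 fold change of -1.07 ± 0.18), and Spc24, a kinetochore subunit, gave -1.27. Anln, an actin-binding protein of cytokinesis, rose (0.51). Lines 1 and 2 also differed from line 3 in interferon-stimulated genes (medians 1.09, 0.87 and 0.18) and in goblet cell genes (-0.95, -0.68 and -2.15). With 1 pair of libraries per line, the difference between lines was not tested.

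**Figure D4:**
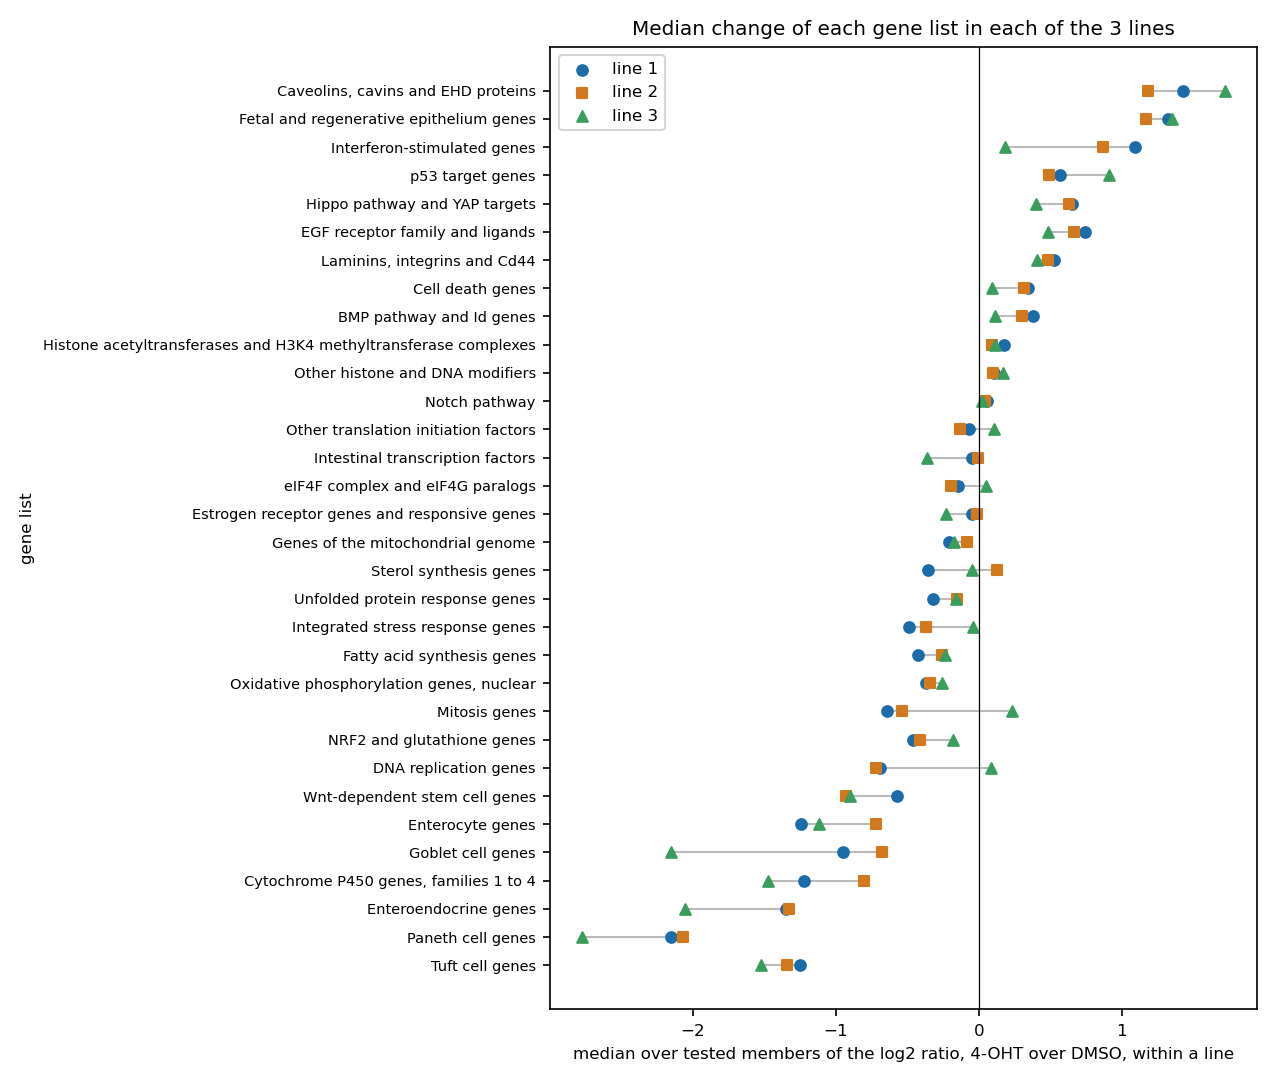
Median over the tested members of each gene list of the log2 ratio of 4-OHT over DMSO within each organoid line, computed on CPM with 0.5 added. Lines 1 and 2 lie together at -0.69 and -0.71 for DNA replication genes, where line 3 lies at 0.08. For Paneth and caveolin genes the 3 lines lie on the same side.

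Most listed targets of p53 were higher. Of 35 tested members 26 rose and 4 fell, with a median of 0.65. Zmat3, an RNA-binding tumour suppressor, stood at 136, 114 and 98.9 CPM with DMSO and 320.2, 274 and 348 CPM with 4-OHT (edgeR adjusted p = 0.000593 for a log2 fold change of 1.44 ± 0.13). Mdm2, the ligase that degrades p53, gave 0.96, Ccng1 1.04, the death receptor Eda2r 1.49 and Psrc1 1.53, a call lost with no filter (edgeR adjusted p = 0.065). The 3 lines shared the direction, with line medians of 0.57, 0.49 and 0.91. Among the 5 that were not called was Cdkn1a, the cell cycle inhibitor p21, which stood at 335, 331 and 297 CPM with DMSO and 334, 345 and 342 CPM with 4-OHT (edgeR adjusted p = 0.422 for a log2 fold change of 0.09 ± 0.08). Its groups overlapped. Cdkn2a, whose locus encodes other cell cycle inhibitors, rose (1.41).

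Genes of the integrated stress response, which ATF4 drives when eIF2 is phosphorylated, did not rise as a list. Of 48 tested members 20 fell, 4 rose and 24 were not called, with a median of -0.26. The called share, rises and falls together, was near the 43.3% of all genes. Of all genes, however, near-equal parts were called higher (22.2%) and lower (21.1%). The median log2 ratio within each line was -0.49, -0.37 and -0.04 in lines 1, 2 and 3. In line 3, 22 of the 48 members were higher with 4-OHT, against 6 in line 1 and 9 in line 2. The fall of the list was thus mainly that of lines 1 and 2. Trib3, a pseudokinase that ATF4 induces, stood at 19.3, 17.3 and 19.6 CPM with DMSO and 3.22, 3.81 and 2.92 CPM with 4-OHT (edgeR adjusted p = 0.000244 for a log2 fold change of -2.50 ± 0.16). Cth, an enzyme of cysteine synthesis, gave -2.33 and asparagine synthetase, Asns, -0.76. Ppp1r15a, the phosphatase subunit that ends the response, rose (0.86), and Atf4 itself was not called (0.03). Without line 3, 35 members were called lower and without line 1 or line 2, 12, beside 4 higher each time. In the unfolded protein response list 14 of 32 fell and 1 rose. The called share of 46.9% was near that of all genes (43.3%), but falls prevailed here too. Herpud1 gave -0.99 and Xbp1 -0.76, and the chaperone Hspa5 was not called (-0.02). Without line 1, 9 members of this list were called lower.

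Among the paralogs and partners of eIF4G2, 3 of 23 rose and 7 fell, Eif4g2 among the falls, a called share of 43.5% that is near the 43.3% of all genes. Per kilobase of gene model, Eif4g1 stood at 127, 119 and 136 CPM with DMSO and 125, 116 and 149 CPM with 4-OHT, and was not called (0.02). Eif4g2 per kilobase stood at 74.3, 69.3 and 78.1 CPM with DMSO, so with DMSO it was below Eif4g1 and well above Eif4g3, at 9.64, 9.24 and 9.08. Eif4g3, the third member of the family, rose to 15.9, 15.9 and 15.6 CPM per kilobase (edgeR adjusted p = 0.00055 for a log2 fold change of 0.76 ± 0.07). The helicase gene Eif4a2 rose (0.77), while its paralog Eif4a1 was not called (0.16). Eif4e3, a relative of the cap-binding protein, stood at 1.53, 1.69 and 1.29 CPM per kilobase with DMSO and fell to 0.483, 0.389 and 0.321 (-1.91). Pdcd4, which inhibits eIF4A, fell (-1.33). Among 43 other initiation factors 7 rose and 2 fell, a called share of 20.9% that is under that of all genes. Eif1 and Eif5, which set the stringency of start codon choice, rose (1.01 and 0.65). Without line 1 the 2 lists had 2 rises and 3 falls and 3 rises and no fall, and without line 3 the second list had 7 rises and 11 falls.

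Transcripts of histone acetyltransferases and H3K4 methyltransferase complexes gave 11 rises and 3 falls among 29 tested, a called share of 48.3% that is near that of all genes (43.3%), with a median of 0.15. Ep300, which encodes the acetyltransferase p300, stood at 121, 129 and 130.4 CPM with DMSO and 320.3, 327 and 295 CPM with 4-OHT (edgeR adjusted p = 0.000244 for a log2 fold change of 1.31 ± 0.08). Its paralog Crebbp stood at 55.6, 54.1 and 63 CPM with DMSO and 141, 125 and 128 CPM with 4-OHT (edgeR adjusted p = 0.000314 for a log2 fold change of 1.19 ± 0.09). The 6 values of each gene formed 2 tight groups with no overlap. Kmt2d, an H3K4 methyltransferase, rose by less (0.60), Kmt2c was not called (-0.01), and Kat8 fell (-0.67). Among 60 other histone and DNA modifiers 19 rose and 5 fell, a called share of 40.0% that is near that of all genes. Hdac7 rose (1.12) and Hdac11 fell (-1.10). Without line 1 the first list had 7 rises and 2 falls and the second 12 and 3, without line 2 the first had 6 and 2, and without line 3 they had 13 and 6 and 22 and 12.

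Most called interferon-stimulated genes, which cells use against viruses, were higher, some of them from a very low base. Summed over the 47 listed genes, they took 574, 561 and 543 CPM with DMSO and 893, 880 and 539 CPM with 4-OHT. The sum thus did not rise in line 3. The median log2 ratio within each line was 1.09, 0.87 and 0.18 in lines 1, 2 and 3. Of 40 tested members 22 rose and 5 fell, with a median of 0.92. Oas3, a sensor of double-stranded RNA, stood at 0.531, 0.505 and 0.0886 CPM with DMSO and 8.17, 9.13 and 1.43 CPM with 4-OHT (edgeR adjusted p = 0.000216 for a log2 fold change of 4.04 ± 0.22). Isg15, a ubiquitin-like modifier, stood at 0.906, 0.505 and 0.399 CPM with DMSO and 6.41, 5.76 and 2.85 CPM with 4-OHT (edgeR adjusted p = 0.000382 for a log2 fold change of 3.05 ± 0.24). Line 3 reached the lowest 4-OHT level for both. Ddx60, a helicase, gave 2.50. Rnf213, a ligase at a higher level, stood at 67.3, 67.4 and 56.6 CPM with DMSO and 173, 176 and 119 CPM with 4-OHT (edgeR adjusted p = 0.000302 for a log2 fold change of 1.27 ± 0.09). Ifitm3, a membrane restriction factor, fell (-1.47), a call lost with no filter (edgeR adjusted p = 0.11). Without line 2, 15 members were called higher and 2 lower, and without line 3, 30 and 4.

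Interferon factors bind a pair of GAAA runs with any 2 bases between them. Promoters of 3 of the rising interferon genes, chosen among those with such a match, are shown. The windows are chr4:156200819-156201068 on the minus strand for Isg15, chr5:120777660-120777909 on the minus strand for Oas3 and chr8:61927837-61928086 on the plus strand for Ddx60, cut and written as above, with matches on either strand in capitals. Isg15 holds 3 overlapping matches, Oas3 holds 1 and Ddx60 holds 2.
Isg15 promoter: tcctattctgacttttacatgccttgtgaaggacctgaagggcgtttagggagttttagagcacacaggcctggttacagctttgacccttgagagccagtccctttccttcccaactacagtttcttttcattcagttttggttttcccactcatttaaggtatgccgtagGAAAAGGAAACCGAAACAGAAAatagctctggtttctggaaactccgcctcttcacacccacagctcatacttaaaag
Oas3 promoter: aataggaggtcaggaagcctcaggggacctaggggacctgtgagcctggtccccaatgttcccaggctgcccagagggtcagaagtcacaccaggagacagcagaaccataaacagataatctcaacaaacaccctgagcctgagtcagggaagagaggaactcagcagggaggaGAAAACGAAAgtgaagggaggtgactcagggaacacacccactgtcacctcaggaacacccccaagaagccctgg
Ddx60 promoter: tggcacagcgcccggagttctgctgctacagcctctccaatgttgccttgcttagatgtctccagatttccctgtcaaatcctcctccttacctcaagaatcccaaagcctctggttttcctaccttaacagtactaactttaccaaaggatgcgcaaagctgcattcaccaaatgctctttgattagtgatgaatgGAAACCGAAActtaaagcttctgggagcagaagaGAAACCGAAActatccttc
Matches were present for 15 of 32 tested list members with a window (46.9%) and for 325 of the 10663 tested genes with one (3.05%). The list consists of genes known to respond to interferon, so this share describes the list and not the change. The letters ATCAAAG, which TCF and LEF factors bind, were present for 2 of 19 tested stem cell genes with a window (10.5%, among them the falling gene Sp5) and for 307 of the 10663 (2.88%).

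Nuclear genes of oxidative phosphorylation had 48 falls and no rise among 74 tested, each small, with a median of -0.31. Sdhc, a subunit of complex II, stood at 221, 206 and 225 CPM with DMSO and 118, 135 and 129 CPM with 4-OHT (edgeR adjusted p = 0.000971 for a log2 fold change of -0.78 ± 0.08), and Atp5c1, a subunit of ATP synthase, gave -0.61. Without line 1, 18 were called lower, without line 2, 31, and in the fit with the A-485 libraries 11. Genes of the mitochondrial genome had 3 falls and no rise among 15, a called share of 20.0% that is under the 43.3% of all genes. Among them mt-Rnr2 gave -1.01 and mt-Co1 was not called (-0.15). Without line 3 the list had 4 falls and 1 rise. Of 28 sterol synthesis genes 6 fell and 2 rose, a called share of 28.6% that is also under that of all genes. Without line 1 the count was 3 and 1. Insig1, which holds back sterol synthesis, stood at 754, 689.8 and 674 CPM with DMSO and 281, 445 and 327 CPM with 4-OHT (edgeR adjusted p = 0.00307 for a log2 fold change of -1.03 ± 0.15).

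A second organoid set of the same study, sequenced in other libraries, allowed the effect to be set beside one in which both arms received 4-OHT. It holds 4 libraries of Eif4g2(flox/flox), Rosa26(CreER) organoids and 4 of Eif4g2(+/+), Rosa26(CreER) organoids, titled wild-type, all given 0.5 µM 4-OHT for 24 h in ENR and collected on day 6. Its comparison is between different lines and not within lines. In that set 6332 of 15515 tested genes were called (40.8%), 19.8% higher and 21% lower. The difference between the 2 effects was called for 1405 genes (9.06%), 651 with a higher and 754 with a lower value in the first set. Without line 1 it was called for 372 and without line 3 for 835, without line 2 for 1227, and in the fit without the line block for 923. The set, the lines and the kind of control differ together between the 2 comparisons and cannot be told apart.

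Some stem cell, goblet, Paneth and enterocyte genes fell further in the first set. Lgr5 gave -2.65 in the first set and -1.02 in the second, a difference of -1.63 ± 0.29, edgeR adjusted p = 0.00979. Olfm4 gave -4.33 and -2.28 (-2.05 ± 0.27, edgeR adjusted p = 0.00237), and Lfng -3.84 and -1.82 (-2.02 ± 0.27, edgeR adjusted p = 0.0012). Atoh1 fell in the first set and gave -0.20 in the second (difference -1.58). The difference was called lower for 8 of the 27 stem cell genes, 10 of 29 goblet, 11 of 49 enterocyte and 6 of 32 Paneth genes, against 4.86% of all genes in that direction, and higher for 3, 1, 0 and 1 of them, against 4.2%. It was called lower for 3 of 35 enteroendocrine genes and for none of 23 tuft cell genes, of which 1 was higher. Eif4g2 itself did not differ by a called amount (0.04 ± 0.11, edgeR adjusted p = 0.854).

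The largest called differences among genes of at least moderate level were, on the higher side, Col18a1 (2.98), Plekhs1 (2.91), Timp2 (2.88), Trpm6 (2.36) and Elk3 (2.28). Timp2, an inhibitor of matrix metalloproteinases, stood at 15.5, 14.1 and 8.11 CPM with DMSO and 45.5, 29 and 17.7 CPM with 4-OHT. It rose in the first set (1.25) and fell in the second (-1.64). On the lower side were Slco2b1 (-2.44), Ces1f (-2.21), Cps1 (-2.10), Hsd17b13 (-2.06) and Olfm4. Trpm5, the tuft cell channel, had a smaller fall in the first set (-1.55) than in the second (-2.58).

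Several rises were larger in the first set. The EGF receptor ligands Hbegf (difference 1.35 ± 0.16, edgeR adjusted p = 0.000648), Areg (1.19) and Btc (0.88) are examples. So are the YAP-related genes Ptpn14 (2.05) and Amotl2 (1.29) and the interferon gene Oas3 (3.03). Fetal and regenerative genes had 8 rises and 5 falls among 38 in the second set, where 19.8% of all genes were called higher, with a median of 0.36, and the difference was called higher for 7 of the 38. For Cav1 the effect was 3.12 in the second set, and the difference of 2.60 ± 1.65, edgeR adjusted p = 0.37 was not called. Ep300 gave 1.40 and Crebbp 0.93 there, with differences of -0.10 and 0.26 that were not called. Sterol synthesis genes had 19 rises and no fall in the second set, with a median of 0.43, and the difference was called lower for 8 of 28, Insig1 (-1.47) and Hmgcs1 (-0.75) among them. The oxidative phosphorylation genes differed in the same direction for 21 of 74.

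**Figure D5:**
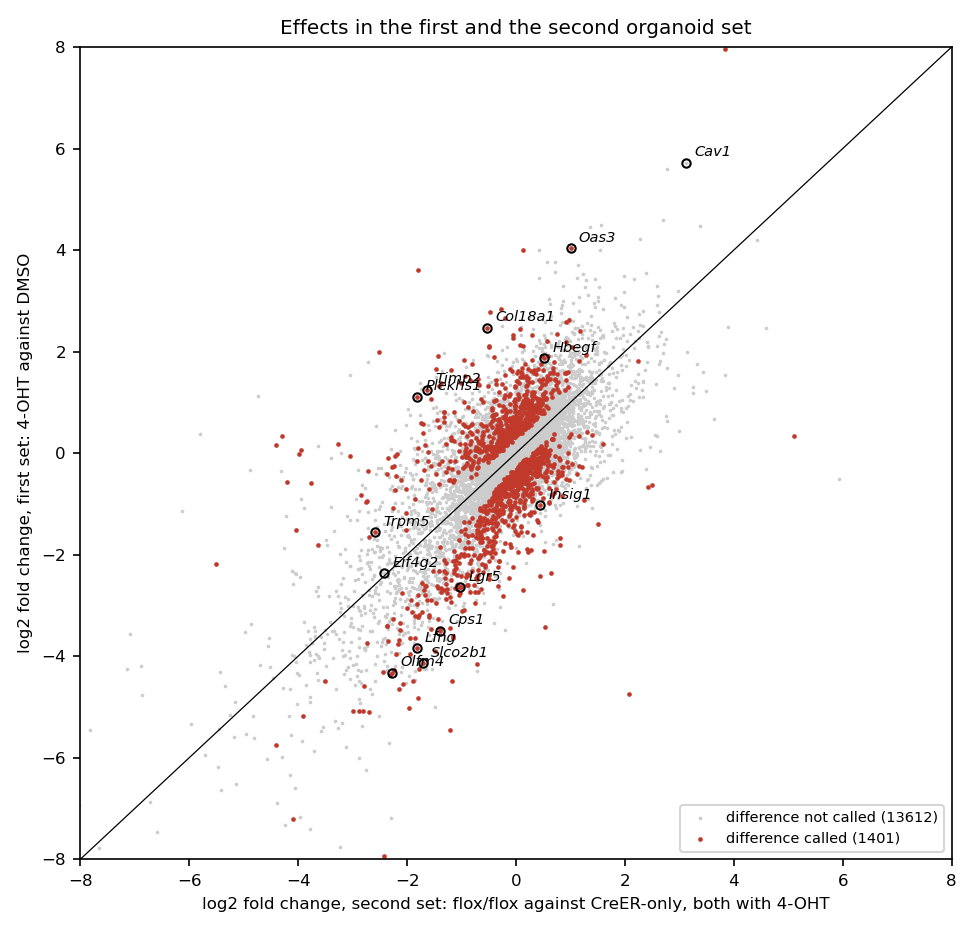
Log2 fold change in the first set (4-OHT against DMSO) against that in the second set (flox/flox against CreER-only, all with 4-OHT) for 15013 genes tested in both, with the diagonal of equal effects. Red points are the 1401 genes whose difference was called, named genes are circled, and 6 genes lie outside the axes.

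Fetal intestinal spheroids of the same genotype, 6 libraries with 4-OHT and 6 with DMSO, gave 6205 called genes of 16025 (38.7%; 18% higher and 20.7% lower), or 3416 without the block of spheroid replicate numbers. The treatment protocol in the labels gives 0.5 µM 4-OHT or DMSO for 24 h for spheroids as for organoids, with collection on day 6. The difference from the organoid effect was called for 12 genes (0.0749%), 7 (0.0437%) higher and 5 (0.0312%) lower in the organoids, and 1154 had an unadjusted edgeR p under 0.05. All 12 calls were lost without any 1 of the 3 organoid lines and in the fit without line or spheroid blocks, while DESeq2 called 188. Akp3, a brush border phosphatase, fell by less in the organoids (-2.22) than in the spheroids (-7.43). L1cam, a cell adhesion protein, stood at 66.6, 71.1 and 68.6 CPM with DMSO and 49.7, 61.6 and 48.2 CPM with 4-OHT in the organoids and gave -0.38, against 1.62 in the spheroids. Ep300 and Crebbp gave 1.25 and 1.36 in the spheroids, and Trib3 gave -1.27. Lgr5 (-2.49), Olfm4 (-4.71), Cav1 (3.64) and Oas3 (3.53) moved in the same direction as in the organoids.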

How the data were processed

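RNA-seq of poly(A) RNA from 6 organoid libraries was analysed, with 8 libraries of a second organoid set and 12 of fetal spheroids for comparison. The deposited tables hold raw counts per gene, which the authors made after alignment with HISAT2 2.0.5 to GRCm38 (mm10), per the submitters' processing notes; the counting program, the annotation and the use of strand are not given in the sources used here, so overlapping and antisense genes cannot be told apart. In R 4.3.3, edgeR 4.0.16 was used as follows: filterByExpr by group, TMM scaling, robust dispersions and the quasi-likelihood F-test with line as a block. p-values were adjusted by Benjamini-Hochberg over all tested genes and called under 0.05. The shared line names in the labels pair the libraries. Deviations from the group means correlated at 0.358, 0.373 and 0.521 within lines 1, 2 and 3. Across lines, DMSO line 2 and 4-OHT line 1 correlated at 0.334, and DMSO line 1 and 4-OHT line 2 at 0.0695. Every pairing of line 3 with another line was negative. These values set line 3 apart but hardly lines 1 and 2 from each other. Differences between effects came from 1 joint fit per pair of sets. Members of the set and all gene lists were chosen with earlier results of these data known.

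Named genes are Eif4g2, the 12 largest rises and 12 largest falls (called genes with a mean of 3 or more on the log2 CPM scale, separate groups, 1 direction in all 3 lines and no predicted-gene symbol), the 5 largest differences of effects in each direction, and a selection of list members. A gene singled out beyond this rule, such as Lyve1, was chosen after its values were seen. Log2 ratios within a line used CPM with 0.5 added. Promoter windows come from RefSeq's table. Alternatives were DESeq2 1.42.0 size factors, library totals, no filter, no block, DESeq2's Wald test, each line left out and, for the first comparison, a fit with 16 other organoid libraries. The scripts were tested on simulated data. Some genes that the rule or the lists name are not reported here.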

Additional observations from a re-analysis of the deposited data

Results flagged for a closer look

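Effects in the first set that differed from those in the second set or in the fetal spheroids, by the test of the difference itself with edgeR's quasi-likelihood test, were looked at again. The difference from the second set was called for 1405 genes and that from the spheroids for 12. The values below are the log2 effect in the first set minus that in the other set, all with an edgeR adjusted p under 0.05.

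Among stem cell and Notch genes the difference from the second set was Aqp4 -1.64, Ascl2 -1.02, Atoh1 -1.58, Axin2 -0.54, Dll1 -0.997, Dll4 -1.37, Lfng -2.02, Lgr5 -1.63, Notch2 0.91, Olfm4 -2.05, Smoc2 -1.20 and Tcf7 0.94. Among genes of secretory cells the difference from the second set was Fcgbp -1.55, Foxa3 -1.09, Itln1 -1.24, Neurog3 -1.65, Spdef -1.23, Tac1 -1.16, Tff3 -1.27 and Trpm5 1.03. Among absorptive, P450 and intestinal transcription factor genes the difference from the second set was Cdx1 -0.66, Cps1 -2.10, Fabp1 -1.74, Gata4 -0.37, Hnf4g -1.09 and Nr5a2 -1.14. Among YAP, fetal, EGF receptor and matrix genes the difference from the second set was Amotl2 1.29, Areg 1.19, Btc 0.88, Dusp6 0.96, Egfr 0.72, Hbegf 1.35, Krt7 1.34, Ptpn14 2.05 and Tead1 0.53. Among stress response, translation, chromatin, sterol, oxidative phosphorylation and interferon genes the difference from the second set was Atf4 -0.38, Atp5c1 -0.47, Cth -0.92, Hdac7 1.24, Hmgcs1 -0.75, Insig1 -1.47, Oas3 3.03, Pdcd4 -0.66, Rnf213 0.83, Sdhc -0.57, Trib3 -1.31 and Xbp1 -0.43. For the remaining named genes it was Acot1 -2.03, AY761184 -0.97, Ces1d -1.88, Ces1f -2.21, Col18a1 2.98, Elk3 2.28, Fam117b -0.80, Fam20a -1.27, Hsd17b13 -2.06, L1cam -0.93, Plekhs1 2.91, Slco2b1 -2.44, Timp2 2.88, Trpm6 2.36 and Upk3b -1.72.

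Against the spheroids the difference was Akp3 5.21, Ccl20 4.42, Cyp26b1 -2.08, Fam117b -1.20, Fam20a 4.56, Hspa1b 1.61, L1cam -1.996, Tiam1 -1.90 and Upk3b -2.32. Fam117b, Fam20a, L1cam and Upk3b differed from both. Akp3 and Fam20a fell further in the spheroids, Ccl20 rose in the organoids (1.51) and fell in the spheroids (-2.91), and Tiam1 did the opposite (-0.70 and 1.20).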

How the results depend on the processing

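Of 175 named genes tested in the first set, 152 were called, and 122 of these kept the call under every alternative tried. The 6622 called genes became 6554 with DESeq2 size factors, 6639 with library totals, 6865 with no filter and 5905 with DESeq2. Scaling moved the median over all genes from 0.02 to at most 0.07. With the A-485 libraries in the fit 2907 were called, and leaving out 1 line gave 3956 to 7625; the cause was not tested beyond fewer libraries in the latter. In the fit with the A-485 libraries the rises and falls were 8 and 3 among cell death, 4 and 3 among acetyltransferase and H3K4, 12 and 1 among other modifier, 14 and 1 among interferon, 4 and 2 among BMP and 3 and 13 among integrated stress response genes, and 8 unfolded protein response and 6 fatty acid synthesis genes fell. Trpm5, Spdef, Anln, Cyr61, L1cam, Plekhs1, Fam20a, Ccl20 and Cyp26b1 also lost their calls in that fit, and Clca4a, C4bp, Reg1, Trpm6, Plekhs1 and Scd1 lost theirs with no filter.

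Without the replicate block 5422 genes were called in the first set and 3416 in the spheroids, the difference from the second set was called for 923 and that from the spheroids for 0 (1154 genes had an unadjusted edgeR p under 0.05 in the blocked fit). DESeq2 called 2159 and 188 differences, and 20 genes differed from the spheroids with no filter. Leaving out 1 line gave 372 to 1227 differences from the second set and 0 from the spheroids.

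No called gene changed sign. Genes that were not called and did, each beside the range from leaving out 1 replicate, were Clca1 (0.0084 with library totals, 0.14 without the block, range -0.39 to 0.44), Eif4g1 (-0.00094 with DESeq2 size factors and with DESeq2, range -0.032 to 0.046), Gata4 (-0.012 with both, range -0.012 to 0.019), Kmt2c (0.039 with library totals, 0.0037 with no filter, range -0.057 to 0.043) and Hspa5 (0.032 with library totals, range -0.074 to 0.064). Of these, Clca1 was called higher without line 3 (0.44, edgeR adjusted p = 0.00622). Only leaving out a replicate turned Atf4 (-0.036 to 0.10), Clu (-0.0069 to 0.41), Hmgcs1 (-0.31 to 0.0099), Lamb3 (-0.38 to 0.15), Nts (-0.055 to 0.88) and Sox9 (-0.15 to 0.14).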

Other observations

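Genes of glutathione metabolism and of the NRF2 response, which protects cells against oxidants, had 23 falls and 5 rises among 39 tested, with a median of -0.38. Gsta3 stood at 137, 153 and 163 CPM with DMSO and 26, 27.4 and 66.3 CPM with 4-OHT (edgeR adjusted p = 0.00145 for a log2 fold change of -2.05 ± 0.24), so line 3 kept more of it than the other lines. Cbr3 (-2.20) and Gstm1 (-1.53) also fell. Without line 1 the list had 16 falls and 3 rises, and with no filter the call on Gsta3 was lost (edgeR adjusted p = 0.0584). Fatty acid synthesis genes had 12 falls and 1 rise among 23, with the desaturase genes Fads1 at -1.59 and Scd1 at -0.71. Without line 1 the list had 8 falls and no rise, and the call on Scd1 was lost (edgeR adjusted p = 0.0659).

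Genes of the BMP pathway, which opposes stem cell renewal, had 10 rises and 4 falls among 21 tested, with a median of 0.25. The called share was 66.7%, against 43.3% of all genes. Without line 1 or line 2 the list had 4 or 3 rises and 2 falls. Cell death genes had 16 rises and 7 falls among 34, a called share of 67.6%, with a median of 0.30. Among all genes 22.2% were called higher and 21.1% lower. Without line 1 the cell death list had 9 rises and 4 falls, and without line 2, 10 and 5. Hspa1b, a heat-inducible chaperone with a near-identical copy, stood at 12.6, 14.5 and 8.59 CPM with DMSO and 84.9, 71.4 and 42.8 CPM with 4-OHT (edgeR adjusted p = 0.000174 for a log2 fold change of 2.46 ± 0.12).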
